A study of Mus musculus with 3 samples.

Results

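The sites described here are 402 strong, isolated HDAC3 peaks of wild-type (WT) mouse liver for which the NS-DADm liver had no overlapping peak in its list. They were chosen from the 5799 listed WT peaks by their measured values. A member had a WT value of 2.0 RPM (a read count scaled to the size of its library) or more, no NS-DADm peak overlapping it by as little as 1 bp, and no other WT peak within 10 kb, measured edge to edge. Of 491 isolated WT peaks at or above that value, the other 89 overlapped an NS-DADm peak and serve as the set for comparison. Since the value, the overlap and the isolation picked the members, these measures are given as descriptions, with no test.

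The data came from chromatin immunoprecipitation and sequencing (ChIP-seq) with an HDAC3 antibody. Both groups were livers of male C57Bl/6 mice aged 10 to 12 weeks, on normal chow and a regular light cycle, taken at zeitgeber time 10 (hours after lights on). DNA from 4 to 5 mice per condition was pooled before sequencing, and the labels call the mutant only NS-DADm. Each genotype has 1 peak list, with no replicate. The WT list joins 2 samples, one of them an HDAC3f/f liver given AAV-GFP (a virus carrying a green fluorescent protein gene) as the control of a knockout, and its part in any difference cannot be told apart from genotype. The NS-DADm list held 600 peaks, all peaks in both lists were 200 bp wide, and the depth of either library is unknown. Peak lists hold no expression values, so the liver label was not checked against marker genes. The input sample, made without antibody, was not analysed here.

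HDAC3 removes acetyl groups from histones, which is linked to lower transcription. It is held in complexes with the nuclear receptor corepressors NCoR and SMRT, and their deacetylase activating domain (DAD) both binds HDAC3 and switches on its enzyme activity. In liver, nuclear receptors such as the circadian repressor Rev-erb alpha bring these complexes to DNA, and lipid synthesis genes are among the known targets. As background knowledge of the line, NS-DADm mice carry mutated DADs in both corepressors. The comparison asks where HDAC3 is listed on the genome when these domains are mutated. Peak positions are on build mm8, are counted from 1, and were not assigned to genes, exons or introns here, because the gene table at hand is of another build.

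Most strong isolated WT peaks had no NS-DADm peak, as was the case over the WT list as a whole. Among isolated WT peaks of 2.0 RPM or more, 402 of 491 had no NS-DADm peak, or 81.9% (exact Clopper-Pearson 95% interval 78.2 to 85.2%). Over all WT peaks the share was 93.3% (5409 of 5799), and over all isolated WT peaks it was 94.3% (2817 of 2988). The NS-DADm list held only 600 peaks of the same width, so most of the WT list had to lack an overlap. Over all WT peaks of 2.0 RPM or more, isolated or not, it was 81.2% (992 of 1222). Strong peaks with another WT peak within 10 kb gave 80.7% (590 of 731, interval 77.7 to 83.5%), which overlaps the interval of the isolated ones. The share of 81.9% was below that of all isolated WT peaks, whose interval was 93.4 to 95.1%. It describes the 491 strong isolated peaks. Lack of overlap was part of the rule that chose the members, so nothing is read from the share about them. Intervals cover counting error over listed peaks only, and peaks of 1 list are not replicates.

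The 10 highest sites had WT values of 4.6 to 6.6 RPM and lay on 9 chromosomes. The highest, chr15:66843321-66843520, reached 6.6 RPM in WT. The NS-DADm peak closest to it, of 1.3 RPM, was 4685 kb away. The next, chr2:179190375-179190574, had 6.0 RPM and no NS-DADm peak within 2657 kb. The nearest listed WT peak had 1.4 RPM at 69.3 kb for the chromosome 15 site and 2.1 RPM at 30.1 kb for the chromosome 2 site. Choice by the highest value favours a lower neighbour, and the signal between listed peaks is unknown.

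The site chr7:142999444-142999643 reached 5.7 RPM in WT, with an NS-DADm peak of 1.6 RPM at 148 kb. At 5.6 RPM, chr1:90119310-90119509 was 1929 kb from an NS-DADm peak. Another chromosome 2 site, chr2:30251218-30251417, had 5.2 RPM and an NS-DADm peak at 1035 kb. None of the NS-DADm peaks nearest to these 5 sites was above 1.7 RPM.

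A group of 3 sites tied at 5.0 RPM, and they differed in their surroundings. The site chr3:37949850-37950049 was 8026 kb from the nearest NS-DADm peak and 118 kb from the nearest WT peak. By contrast, chr10:77057195-77057394 had an NS-DADm peak of 1.2 RPM at 43.2 kb. The site chr18:10413688-10413887 stood alone in WT, with its nearest WT peak 747 kb away at 1.0 RPM, the lowest value of the WT list.

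The list of 10 ended with chr17:28937199-28937398 at 4.9 RPM and chr6:37681368-37681567 at 4.6 RPM. Their nearest NS-DADm peaks, both of 1.4 RPM, were 130 kb and 3095 kb away. For none of these 10 sites did the nearest WT peak overlap an NS-DADm peak. Such an overlap was rare in general, at 17 of all 402 members (4.23%) and 5 of the 89 shared peaks (5.62%). The NS-DADm list starts at 1.1 RPM and may have passed other filters, so the HDAC3 level of an unlisted site in the mutant is unknown.

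Most members lay near the value limit. The median WT value over the 402 sites was 2.4 RPM (interquartile range 2.1 to 2.9), and 218 of them, or 54.2%, had 2.4 RPM or less. A value of 3.0 RPM or more was found at 90 sites, or 22.4%, of 4.0 RPM or more at 22 sites, and of 5.0 RPM or more at 8. The 89 strong isolated peaks that overlapped an NS-DADm peak had a median of 2.6 RPM (2.3 to 3.3), and 33 of them, or 37.1%, had 3.0 RPM or more. The ranges overlapped almost fully, with 2.0 to 6.6 RPM for sites without and 2.0 to 6.8 RPM for sites with an NS-DADm peak.

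**Figure D1:**
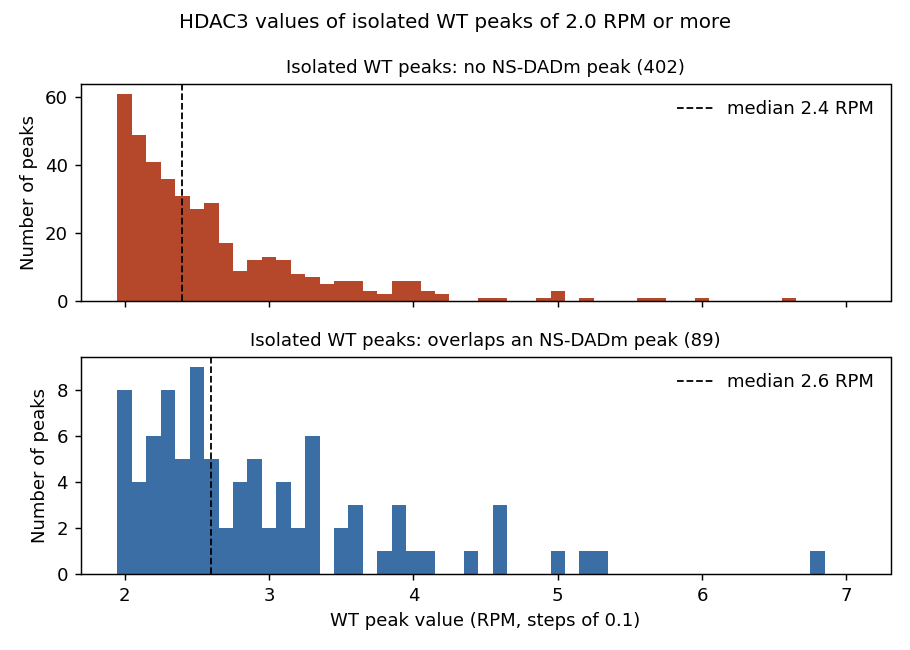
Number of isolated WT peaks (vertical axis) at each WT value in RPM (horizontal axis, steps of 0.1), for the 402 without and the 89 with an overlapping NS-DADm peak, on separate vertical scales, with the median as a dashed line. Peaks without an NS-DADm peak are most numerous at 2.0 RPM (61). Those with one number 4 to 9 at each step from 2.0 to 2.5 RPM and run on to 6.8 RPM. The medians are 2.4 and 2.6 RPM.

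The value limit cuts through a dense part of the list. At 2.0 RPM exactly there were 61 isolated WT peaks with no NS-DADm peak, and at 1.9 RPM, just outside, there were 128. The first members inside, by chromosome and start, were chr1:91386544-91386743, chr1:182789187-182789386 and chr2:26232936-26233135, all at 2.0 RPM. Just outside at 1.9 RPM lay chr1:41503890-41504089, chr1:58046194-58046393 and chr1:140423232-140423431. Values are rounded to 0.1 RPM.

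Among isolated WT peaks, the share with no NS-DADm peak was lower in each higher class of WT value. From 2.0 to 2.4 RPM, 218 of 249 isolated peaks had none, or 87.6% (exact interval 82.8 to 91.4%). The share was 79.0% from 2.5 to 2.9 RPM (94 of 119, 70.6 to 85.9%) and 74.7% from 3.0 to 3.9 RPM (68 of 91, 64.5 to 83.3%). At 4.0 RPM or more it was 68.8% (22 of 32, 49.99 to 83.88%). Below the limit, isolated peaks of 1.0 to 1.4 RPM lacked an NS-DADm peak in 97.6% of cases and those of 1.5 to 1.9 RPM in 94.7%. The step down from class to class was thus present on both sides of the limit.

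Clustered WT peaks had shares whose intervals overlapped those of isolated peaks in each class. They lacked an NS-DADm peak in 85.1% of cases from 2.0 to 2.4 RPM, 84.2% from 2.5 to 2.9 RPM and 76.5% from 3.0 to 3.9 RPM. At 4.0 RPM or more, 16 of 39 clustered peaks had none, or 41.0% (25.6 to 57.9%), beside 68.8% of the isolated ones. The difference was not tested, since overlap with NS-DADm is part of the rule.

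**Figure D2:**
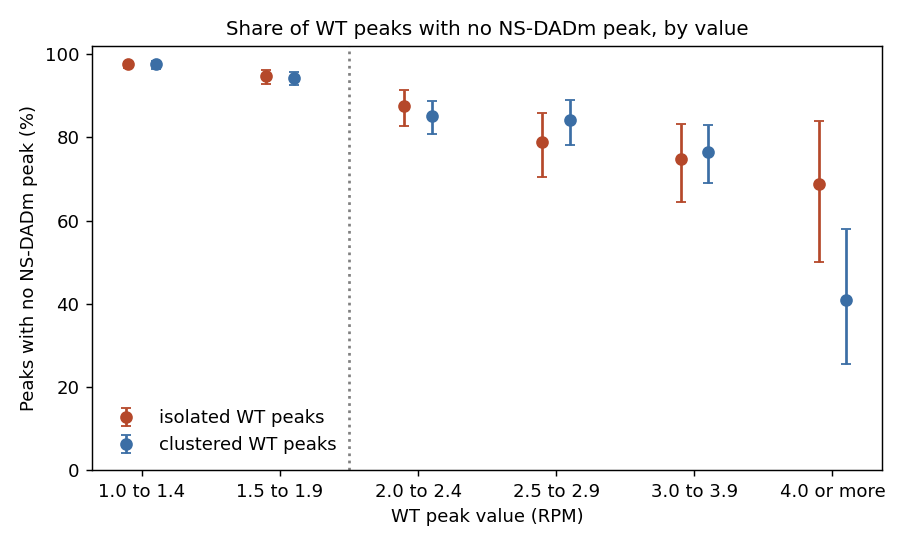
Percentage of WT peaks with no overlapping NS-DADm peak (vertical axis) by WT value in RPM (horizontal axis), for isolated peaks and for clustered peaks with another WT peak within 10 kb; bars are exact 95% intervals and the dotted line marks the limit of 2.0 RPM. Isolated peaks go from 97.6% in the lowest class to 68.8% in the highest, and clustered peaks from 97.6% to 41.0%.

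Where the NS-DADm liver did list a peak on a strong isolated WT peak, the value there was below the WT value. The median NS-DADm value at the 89 peaks was 1.4 RPM (interquartile range 1.2 to 1.6), beside 1.2 RPM over all 600 NS-DADm peaks, and 60 of them, or 67.4%, had 1.5 RPM or less. All 89 had the lower value in NS-DADm, and the log2 ratio of the NS-DADm to the WT value had a median of -0.94 (exact order-statistic 95% interval of the median over peaks -1.04 to -0.84). This corresponds to a 1.92-fold lower value, and single peaks ran from 1.04-fold to 4.82-fold lower. Selection on a high WT value favours, of itself, a lower value in the other list. The NS-DADm list also starts at 1.1 RPM, so any peak that fell below this value is absent from the 89. The ratio thus describes pairs of listed peaks only, and is not a size of HDAC3 loss over strong isolated WT peaks.

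The highest of these 89 covered a wide range in the mutant. The peak chr17:23891298-23891497 had a WT value of 6.8 RPM and an NS-DADm value of 3.8 RPM, and chr8:13159030-13159229 had 5.2 and 3.9 RPM. At chr10:59180635-59180834 the values were 5.3 and 1.1 RPM, so the NS-DADm peak was at the lowest value that its list holds. The peaks chr2:69187147-69187346, with 5.0 and 1.8 RPM, and chr10:7777468-7777667, with 4.6 and 1.4 RPM, lay between. These 5 peaks had WT values of 4.6 to 6.8 RPM, beside 4.6 to 6.6 RPM at the 10 highest sites without an NS-DADm peak.

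Distances from members to the nearest NS-DADm peak overlapped widely with those from shared peaks to a further one. The median distance from a member to the nearest NS-DADm peak was 861 kb (interquartile range 206 to 2268 kb, exact interval of the median 658 to 1027 kb). For the 89 shared peaks, the nearest NS-DADm peak other than the overlapping one was at a median of 608 kb (116 to 2405 kb, interval of the median 348 to 1447 kb). These intervals overlap. An NS-DADm peak lay within 100 kb of 67 members, or 16.7% (13.2 to 20.7%), and a further one within 100 kb of 22 shared peaks, or 24.7% (16.2 to 35.0%). Within 1 Mb the counts were 216 of 402 (53.7%) and 51 of 89 (57.3%).

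**Figure D3:**
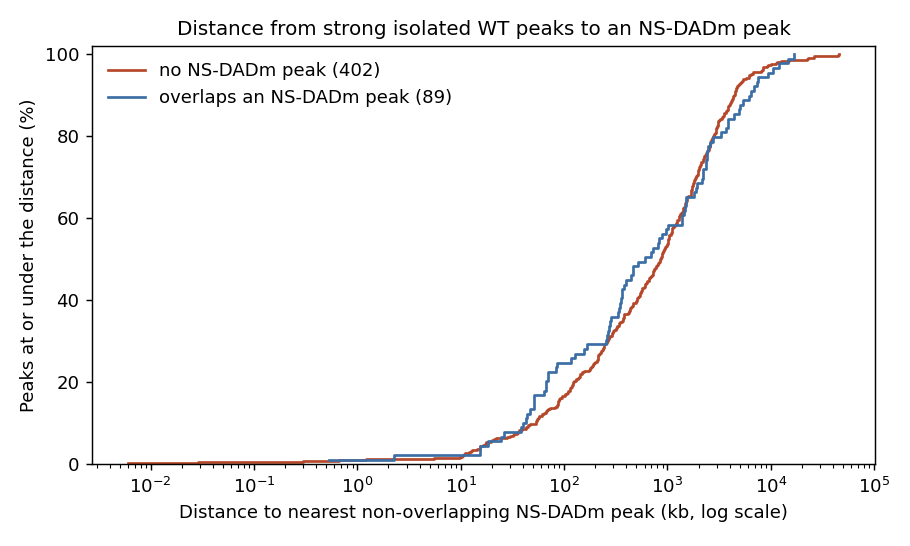
Cumulative percentage of strong isolated WT peaks (vertical axis) by distance in kb, on a log scale, to the nearest NS-DADm peak that does not overlap them (horizontal axis), for the 402 without and the 89 with an overlapping NS-DADm peak. The curves run close together, with medians of 861 and 608 kb.

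An NS-DADm peak lay within 10 kb of 7 of the 402 members (1.74%), and within 1 kb of 4 (0.995%). For the 89 shared peaks, a further NS-DADm peak lay within 10 kb of 2 (2.25%), and within 1 kb of 1 (1.12%). The isolation rule keeps NS-DADm peaks that lie on other WT peaks from being much closer than 10 kb to a member. The closest member was chr15:38376282-38376481, with 3.6 RPM in WT and an NS-DADm peak of 1.2 RPM that began or ended 6 bp from its edge. Next came chr2:143700947-143701146 (2.3 RPM), with an NS-DADm peak of 1.4 RPM at 29 bp. At chr2:157867044-157867243 (2.3 RPM) and chr14:64843824-64844023 (2.1 RPM), NS-DADm peaks of 1.3 RPM lay at 300 bp and 669 bp. The member chr6:116616089-116616288 (2.3 RPM) had an NS-DADm peak of 1.3 RPM at 1211 bp. None of the NS-DADm peaks beside these 5 members lay on a WT peak of its own, which the isolation rule fixes at such distances. The first 2 members in this order would count as shared if peaks that nearly touch were joined.

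On the other side of that limit, some peaks counted as shared barely overlapped. The WT peak chr9:45966772-45966971 (3.1 RPM) shared 4 bp with an NS-DADm peak of 1.4 RPM. For chr11:51611806-51612005 (2.2 RPM) the overlap was 14 bp, and for chr14:7037940-7038139 (2.9 RPM) it was 33 bp. Each of these 3 would be a member under a rule of 50% overlap.

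Other members were remote from every NS-DADm peak. The nearest one was farther than 5 Mb for 28 members (6.97%) and farther than 10 Mb for 11 (2.74%). This was no particular trait of the members. Among the 89 shared peaks, the nearest further NS-DADm peak was beyond 5 Mb for 12 (13.5%) and beyond 10 Mb for 4 (4.49%). In the order of members by distance, both members on chromosome X come first, on a chromosome with 2 NS-DADm peaks in all. These were chrX:73761972-73762171 (2.6 RPM) at 46015 kb and chrX:165325124-165325323 (3.1 RPM) at 45024 kb. On autosomes the farthest were chr1:9569932-9570131 (2.1 RPM) at 26441 kb, chr4:6166257-6166456 (2.2 RPM) at 26409 kb and chr6:6169792-6169991 (2.2 RPM) at 23044 kb. None of these 5 was among the 10 highest members.

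In the WT list, members and shared peaks had neighbours at distances that overlapped widely. The nearest WT peak was at a median of 39.1 kb from a member (interquartile range 18.3 to 135 kb) and 40.6 kb from a shared peak (22.2 to 104 kb). That neighbour had a median of 1.4 RPM in both sets, and the WT peak was higher than its neighbour for 358 of 402 members (89.1%) and 82 of 89 shared peaks (92.1%), a count that the limit of 2.0 RPM favours. It overlapped an NS-DADm peak for 17 members, or 4.23% (2.48 to 6.68%), and for 5 shared peaks, or 5.62% (1.85 to 12.6%). Both sets had a median of 8 other WT peaks within 1 Mb. No other WT peak within 100 kb was found for 122 members, or 30.3%, and for 23 shared peaks, or 25.8%.

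The share of strong isolated peaks with no NS-DADm peak had no steady order by distance to the nearest WT peak. Peaks with the nearest WT peak over 10 and up to 20 kb away lacked an NS-DADm peak in 85.4% of cases (117 of 137), and those over 200 kb away in 85.4% (76 of 89). Between these distances the share was 78.2% from 20 to 50 kb, 77.4% from 50 to 100 kb and 82.1% from 100 to 200 kb, with overlapping intervals. Median WT values of the members in the 5 distance classes were 2.3 to 2.5 RPM.

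The members farthest from any other WT peak were of moderate value. On chromosome X, chrX:165325124-165325323 was 29449 kb from the next WT peak. The site chr7:105625957-105626156 (2.5 RPM) was 3732 kb from its neighbour, and chr8:59161906-59162105 (2.5 RPM) was 3498 kb from its own. Those at chr10:10270161-10270360 (2.6 RPM) and chr16:51998144-51998343 (2.2 RPM) were 2230 and 2182 kb away. At the other end, chr8:117003523-117003722, chr14:49920088-49920287 and chr19:32703418-32703617 met the limit with 10001, 10026 and 10030 bp to the next WT peak. Just outside it, at 9951, 9916 and 9675 bp, lay chr8:124466633-124466832, chr4:53406063-53406262 and chr19:46711772-46711971, with 2.3 to 2.5 RPM and no NS-DADm peak.

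Members were found on all 20 chromosomes with WT peaks. Chromosome 11 held the most, 31 (7.71% of members and 7.59% of all WT peaks), followed by chromosome 2 with 30 (7.46% and 7.05%). Chromosomes 3, 4, 5, 6 and 8 had 25 to 27 each. Chromosomes 18 and 19 had 9 each, and chromosome X had 2. The largest numbers per 100 WT peaks among autosomes were 9.54 on chromosome 17 and 9.13 on chromosome 12, and the smallest was 4.37 on chromosome 19. These numbers also depend on how many WT peaks were strong and isolated: 27 of 241, 29 of 241 and 10 of 206, in that order. Of those strong isolated peaks, 85.2%, 75.9% and 90.0% had no NS-DADm peak.

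The share of strong isolated peaks with no NS-DADm peak ran from 70.6% on chromosome 16 (12 of 17, exact interval 44.0 to 89.7%) to 94.7% on chromosome 13 (18 of 19, 74.0 to 99.9%) among autosomes. The intervals of all 19 autosomes contained the pooled 81.9%, and with 10 to 40 peaks per autosome they were wide. Shared peaks were found on 19 chromosomes, with 9 on chromosome 11 and 8 on chromosome 8. On chromosome X both strong isolated peaks were members.

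**Figure D4:**
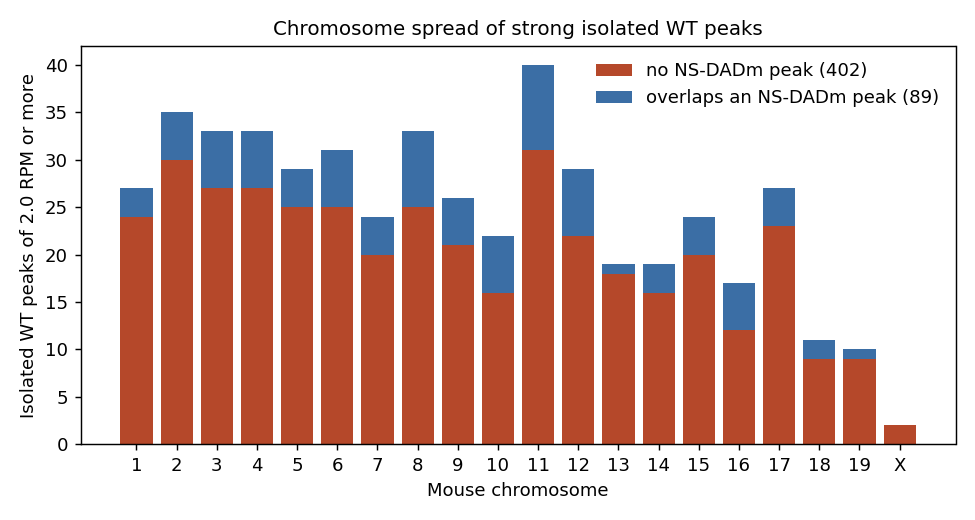
Number of isolated WT peaks of 2.0 RPM or more (vertical axis) on each mouse chromosome (horizontal axis), stacked as those without and those with an overlapping NS-DADm peak. Chromosome 11 has the most, 31 without and 9 with, and chromosome X has 2, both without.

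On 7 of the 20 chromosomes with WT peaks (1, 3, 6, 7, 15, 18 and X) the highest WT peak of the whole chromosome was a member. On the rest it was a shared or a clustered peak. As background, the WT peaks of 4.0 RPM or more comprised 22 members, 10 isolated shared peaks and 39 clustered peaks. The highest member of each chromosome ran from 3.1 RPM on X to 6.6 RPM on 15. Beyond those already given, chr8:27176212-27176411 and chr12:78905693-78905892 had 4.1 RPM, and chr4:59652438-59652637 and chr11:95594962-95595161 had 4.0 RPM. The sites chr5:90107378-90107577 and chr19:20721383-20721582 both reached 3.9 RPM, and chr9:115303590-115303789 had 3.8 RPM. The lowest among autosomes were chr13:34084365-34084564 with 3.7 RPM, chr14:24014769-24014968 with 3.6 RPM and chr16:91684001-91684200 with 3.3 RPM.

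Distances to NS-DADm peaks covered a wide range among chromosomes, with no test made. The median from a member to the nearest NS-DADm peak was 90.5 kb on chromosome 19, 208 kb on chromosome 17 and 300 kb on chromosome 11. It was 1590 kb on chromosome 6 and 1693 kb on chromosome 3. Median WT values of members on the autosomes lay between 2.2 and 2.8 RPM. Chromosome 19 had 9 members and 19 NS-DADm peaks, and chromosome 3 had 27 members and 24 NS-DADm peaks.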

How the data were processed

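The authors deposited 1 peak list per genotype, giving the position, name and value of every peak. The value was taken as RPM from the deposited lists' stated limit of 1 RPM, since no header defines it. Per the submitters' processing notes, HOMER and build mm8 were used, with no version given. The aligner is not given in the sources used here, nor are the peak settings or the use of the input. Values are rounded to 0.1 RPM.

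Distances are bases between peak edges. Counts, medians, exact Clopper-Pearson 95% intervals and exact order-statistic intervals of medians were computed with Python 3.11.15, numpy 2.4.6, pandas 2.3.3 and scipy 1.17.1, and plotted with matplotlib 3.10.9. The rule was tested on simulated data with known answers, edge cases included. With 1 peak list per genotype, no test between genotypes was possible.

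Members and tests were chosen with earlier results of these data known. Named regions are the 10 highest members, the highest per chromosome, the 5 nearest to and farthest from an NS-DADm peak, the 5 farthest from a WT peak, 3 on either side of each limit, and the 5 highest shared peaks. Ties were settled by chromosome and start. Alternatives covered the overlap rule, the value limit, the isolation distance and the autosomes. Limits of 1.1 RPM on the WT list and 1.3 RPM on the NS-DADm list, and all alternatives for the chromosome spread, were added after seeing the data. No gene was assigned, because the gene and sequence tables at hand are of GRCm38.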

Additional observations from a re-analysis of the deposited data

How the results depend on the processing

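Across 12 alternative settings and 5 results (the number of members, their share, median value, median distance and number of chromosomes), 46 of 60 values were counted as staying close and 14 moved. Counts were close within 1.5 times the reported count, and shares and medians within the exact 95% interval of the reported value. The number of chromosomes was 19 or 20 throughout. Under this wide tolerance for counts, the number of members was 527 with isolation at 5 kb and 285 at 20 kb. With a value limit of 1.8 RPM there were 635 members, 85.7% of the strong isolated peaks, with a median of 2.1 RPM. A limit of 2.5 RPM gave 184 members, 76.0% and 2.9 RPM. A limit of 3.0 RPM gave 90 members, 73.2%, 3.45 RPM and a median distance of 1147 kb to the nearest NS-DADm peak. The numbers of members and median values follow from the limit by construction, and for the shares and the distance the cause was not tested. Without the isolation rule there were 992 members at a median distance of 584 kb, more by construction. With only NS-DADm peaks of 1.3 RPM or more, the share was 87.4% and the median distance 2453 kb, since fewer NS-DADm peaks remained. No paired analysis was possible because each genotype has 1 peak list. Depth is unknown, which leaves single peak values without a counting interval.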

Other observations

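Members themselves were mostly far apart. Between the 382 neighbouring pairs of members on the same chromosome the median distance was 3110 kb (interquartile range 750 to 7454 kb). In 170 of these pairs no NS-DADm peak was listed anywhere between the members. This count was not made for other WT peaks, so it is not read as a trait of the members. In 43 pairs no other WT peak was listed between them, and 10 pairs lay within 20 kb of each other. The closest pair, chr11:75260014-75260213 (2.4 RPM) and chr11:75270805-75271004 (3.1 RPM), was 10.6 kb apart. On chromosome 15, chr15:83983892-83984091 (3.6 RPM) and chr15:83996303-83996502 (3.2 RPM) were 12.2 kb apart. On chromosome 5, chr5:140444079-140444278 (2.2 RPM) and chr5:140456579-140456778 (2.7 RPM) were 12.3 kb apart. These 3 pairs were chosen after their values were seen, and each would have been left out as clustered under an isolation distance of 20 kb.

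The member's nearest NS-DADm peak itself lay on another WT peak for 226 of 402 members, or 56.2%. Of all 600 NS-DADm peaks, 387 lay on a WT peak, or 64.5%. The isolation rule keeps NS-DADm peaks that lie on WT peaks from being close to a member, so the shares are not directly comparable.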
